A study of Homo sapiens with 23 samples.

Results

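The subject is the difference in expression level of the established cell line C-33A and that of CaSki, both placed in the cervix as squamous cell carcinoma by the labels. C-33A is labelled HPV-negative and CaSki metastatic and HPV-positive, HPV being human papillomavirus. Genes were taken where the level reached 1 or more in either line, which held for 14899 of the 61217 listed genes. The level is the average log2 CPM of a gene, CPM being the counts scaled to the library total, in the authors' deposited table of a line, called the deposited level from here on. The difference is the level in C-33A minus the level in CaSki, so that 1 stands for a 2-fold, 3 for an 8-fold and 5 for a 32-fold difference. At the edge of this choice, LINC00971 (1.00 in C-33A) and SPON1 (1.00 in CaSki) were just inside by their deposited levels, and RHOT1P1 (0.999 in C-33A) and BLZF2P (0.99985 in CaSki) just outside.

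The study transfected both lines with a microRNA mimic or a control and sequenced RNA that was polyA-selected by the labels. Levels here come from C-33A and CaSki cells given 100 nM of the hsa-miR-218-5p mimic or of a negative control (n#1 in the labels), with 3 libraries of each in each line. Tables of the same lines with the miR-23b-3p and miR-124-3p mimics, made with the same control libraries, served as a check, with 3 mimic libraries each but 2 for C-33A with miR-124-3p. All cells compared had thus been transfected, each line stands for 1 tumour, and whether libraries of a group came from separate cultures is not stated. No values per library were used and the tables were normalized separately for each line, so no test between the lines exists, no p-value is given and the depth is unknown.

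Squamous epithelium of the cervix is a layered tissue whose cells are held together by keratin filaments, desmosomes and E-cadherin and whose identity depends on the transcription factor p63. Most cervical carcinomas arise in it after infection with papillomavirus, whose oncoproteins disable tumour suppressors such as RB. Cancer-testis antigens and oncofetal proteins are, by contrast, normally restricted to the germ line or the embryo, and many of their promoters are silenced by methylation of CpG dinucleotides in adult tissue.

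Both kinds of gene stood at the ends of the difference, and promoters of such genes are shown here as RefSeq gives them (GRCh38.p14), 5′ to 3′ on the gene's strand, from 250 bases before to 50 after the start, with CpG dinucleotides in capitals. KRT5, the type II keratin of basal squamous cells, had the largest difference towards CaSki among genes not close to the lowest value of either table. Its window lies at chr12:52520345-52520644 on the minus strand and holds 7 CpG.
KRT5: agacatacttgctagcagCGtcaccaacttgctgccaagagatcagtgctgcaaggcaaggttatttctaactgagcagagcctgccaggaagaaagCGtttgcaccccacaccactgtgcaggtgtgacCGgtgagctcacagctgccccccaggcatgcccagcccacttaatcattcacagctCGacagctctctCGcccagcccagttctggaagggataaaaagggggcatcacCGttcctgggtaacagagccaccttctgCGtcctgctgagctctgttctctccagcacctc
CAV1 encodes caveolin-1, the coat protein of caveolae, and was also far lower in C-33A. Its window is chr7:116524759-116525058, plus strand, with 19 CpG.
CAV1: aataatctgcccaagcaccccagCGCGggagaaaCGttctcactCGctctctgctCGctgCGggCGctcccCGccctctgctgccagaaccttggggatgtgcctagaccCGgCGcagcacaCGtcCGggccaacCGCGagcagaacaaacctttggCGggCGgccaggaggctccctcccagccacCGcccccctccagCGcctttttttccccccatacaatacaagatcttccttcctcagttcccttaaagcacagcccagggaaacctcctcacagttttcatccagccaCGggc
MAGEA4, a cancer-testis antigen, was the most highly expressed protein coding gene found in C-33A alone. Its window is chrX:151912224-151912523, plus strand, with 10 CpG.
MAGEA4: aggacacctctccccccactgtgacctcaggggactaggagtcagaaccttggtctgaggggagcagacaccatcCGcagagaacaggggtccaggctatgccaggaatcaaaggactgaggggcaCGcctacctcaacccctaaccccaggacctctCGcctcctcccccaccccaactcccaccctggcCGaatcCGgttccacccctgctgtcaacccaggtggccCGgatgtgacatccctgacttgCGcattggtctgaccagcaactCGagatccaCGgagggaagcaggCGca
LIN28B, an oncofetal RNA-binding protein that blocks maturation of let-7 microRNAs, stood high in C-33A as well. Its window is chr6:104940715-104941014, plus strand, with 37 CpG.
LIN28B: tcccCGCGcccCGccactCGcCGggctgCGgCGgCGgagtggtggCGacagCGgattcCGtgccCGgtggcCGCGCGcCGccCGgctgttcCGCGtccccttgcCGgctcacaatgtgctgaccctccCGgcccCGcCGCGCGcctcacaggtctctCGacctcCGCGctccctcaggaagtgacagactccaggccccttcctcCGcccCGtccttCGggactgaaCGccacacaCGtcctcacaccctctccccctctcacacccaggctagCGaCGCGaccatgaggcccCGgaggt

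Some CaSki levels need to be set apart first. For CaSki, 206 described genes were at least 4-fold higher in the control libraries than in the mimic libraries of all 3 deposited comparisons (a log2 fold change of -2 or less), while 0 genes met this rule in C-33A. RPS18, a ribosomal protein gene, had a deposited log2 fold change of -14.83 with miR-218-5p in CaSki, and HLA-E, a non-classical class I gene, of -13.97. The CaSki level of such genes rests on 1 or more control libraries, and what sets those libraries apart was not tested. Of these genes 63 lie on chromosome 6, 61 of them among the 89 described genes between 28 and 34 Mb, where the HLA genes are, and 28 lie on chromosome 17 (GRCh38). In C-33A, 141 of them were within 0.5 of the table's lowest value. Genes that most cells express were among these, such as the proteasome gene PSMB3 (-3.64) and the ribosomal protein gene RPS9 (-3.32). Their low values in C-33A and in the CaSki mimic libraries may thus not mean absent expression. Whether their reads were lost in the counting was not tested. Counts below are given with and without them where they matter, and any that is named is marked.

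Of the described genes 3502 (23.5%) were higher in C-33A by 1 or more and 3159 (21.2%) were lower by 1 or more, and the other 8238 (55.3%) were within 1. The median difference was 0.19 (quartiles -0.74 and 0.94). Centring on that median left 2903 higher and 3539 lower, so the larger of the 2 counts depends on the scaling between the tables. Large differences were more often towards CaSki: 990 genes were higher in C-33A by 3 or more and 1635 were lower, and by 5 or more the counts were 620 higher and 980 lower. Without the genes that rest on the controls, 2961 were lower by 1 or more, 1459 by 3 or more and 824 by 5 or more, with the numbers of higher genes as before. A level of 1 or more was reached in both lines by 11082 genes, in C-33A but not CaSki by 1819, and in CaSki but not C-33A by 1998.

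**Figure D1:**
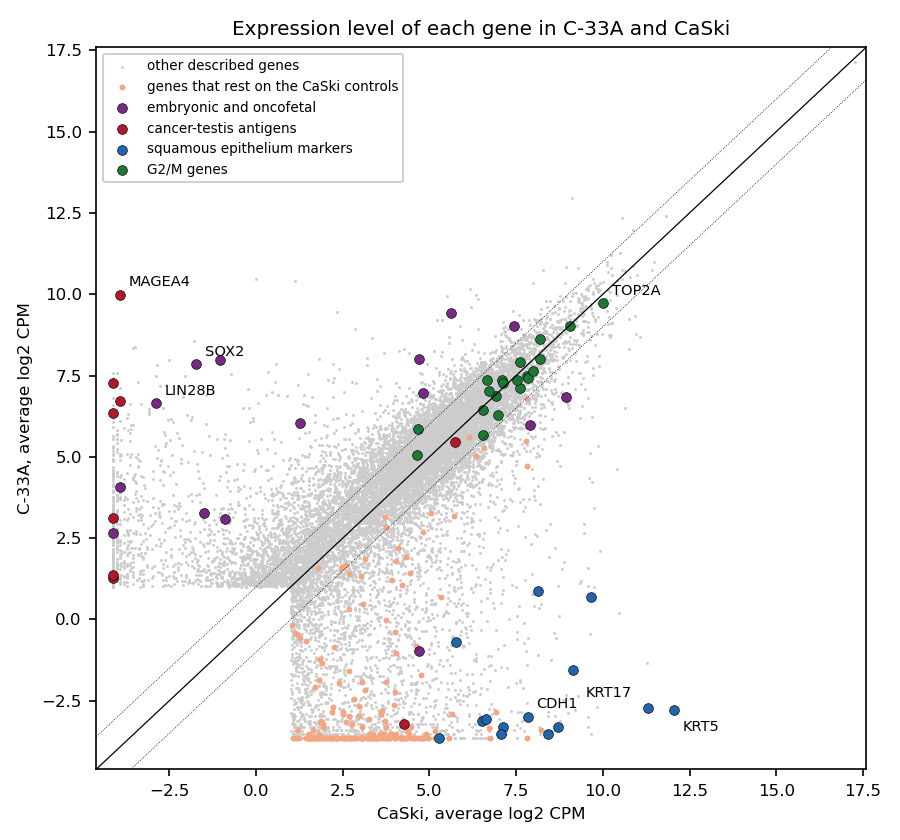
Each point is a described gene, with its deposited level (average log2 CPM) in CaSki on the horizontal axis and in C-33A on the vertical axis; the solid line marks equal levels and the dotted lines a difference of 1. G2/M genes lie along the diagonal, the 14 squamous markers at the lower right, and MAGEA4, SOX2 and LIN28B at the upper left.

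The difference of a gene was stable between tables of the same lines. Over the 3 pairs of deposited tables, which share their control libraries, it ranged over 0.124 for the median gene and 0.415 at the 95th percentile. Leaving aside the genes that rest on the controls, 6463 genes were past 1 in either direction, all 6463 were on the same side in the 3 pairs, and 6115 were past 1 in all of them. This range covers neither the spread between cultures nor the normalization of each line's tables. Protein coding genes divided evenly (21.0% higher and 21.8% lower of 12046), whereas 300 of 842 long non-coding RNA genes were higher (35.6%) and 194 lower. Small nucleolar RNA genes were higher in 32 cases (37.2%) and lower in 3.49% of cases.

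Genes found in a single line were those with a level of 1 or more there and within 0.5 of the lowest value of the other line's table. That value is -3.64 in C-33A and -4.13 in CaSki. It stands for no counted reads, which need not mean that the gene is silent. By this definition 378 genes (2.54%) were found in C-33A alone and 555 (3.73%) in CaSki alone, or 414 without those resting on the controls. With a further pseudocount of 1 CPM added to both levels, which compresses low levels, 1447 genes would be found in C-33A alone and 1786 in CaSki alone. Near the lowest value a difference depends on the small count that the authors' software adds, so both levels are given below and the size of such a difference is a rough value.

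Among protein coding genes found in C-33A alone, MAGEA4 had deposited levels of 9.99, 9.95 and 9.99 in the C-33A tables with miR-218-5p, miR-23b-3p and miR-124-3p, against -3.91, -4.00 and -3.94 in CaSki. The cell surface proteoglycan GPC4 followed with deposited levels of 7.59, 7.52 and 7.50 in C-33A, against -4.01, -4.00 and -3.94 in CaSki. ALDH7A1, a lysine-degrading aldehyde dehydrogenase, had 7.58 in C-33A and the lowest value in the CaSki table. The same pattern, at CaSki's lowest deposited value, held for the neuronal alpha-catenin CTNNA2 (7.44 in C-33A), for MAGEA3 (7.27), for MLIP, which binds lamin (7.21), and for CXXC4, an inhibitor of WNT signalling (6.81). COL3A1, a fibrillar collagen of connective tissue, had a deposited level of 7.11 in C-33A and -3.91 in CaSki. No table of either line departed from these levels by as much as 0.5.

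The protein coding genes found in CaSki alone were led by the histone gene H3C8, with deposited levels of -3.52, -3.18 and -3.03 in C-33A and 9.67, 9.69 and 9.57 in CaSki. Keratins came next: KRT19 had deposited levels of -3.31 in C-33A and 9.58 in CaSki, KRT6A of -3.32 and 8.70, and KRT14 of -3.52 and 8.41. The polyubiquitin gene UBB, which most human cells express, had deposited levels of -3.42, -3.19 and -3.25 in C-33A, against 8.57, 8.50 and 8.54 in CaSki. TDRD9, a helicase of the germ line piRNA pathway in mouse, had a deposited level of -3.42 in C-33A and 8.49 in CaSki, and MAL2, a protein of apical transport in epithelia, of -3.32 and 8.17. RPS18 belongs to this group by its levels (-3.41 in C-33A and 8.22 in CaSki) but rests on the CaSki controls.

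Among genes not within 0.5 of either lowest value, CELF2, a regulator of splicing, had the largest difference towards C-33A (11.89), with deposited levels of 8.33, 8.21 and 8.35 in C-33A, against -3.56, -3.75 and -3.65 in CaSki. MMRN1, a multimerin of platelets and endothelium, differed by 11.87, the transcription factors SOX5 and ZNF608 by 10.71 and 10.68, and the neuregulin receptor ERBB4 by 10.48 in the deposited tables. SEMA3D, a secreted guidance cue, is better measured in CaSki, with deposited levels of 10.45, 10.60 and 10.62 in C-33A and 0.00, -0.09 and 0.22 in CaSki (difference 10.45). KIF1A, a motor of axonal transport, differed by 10.37 and the histone gene H4C4 by 10.35.

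At the other end, KRT5 had deposited levels of -2.78, -2.74 and -1.68 in C-33A and of 12.05, 12.08 and 12.08 in CaSki (difference -14.83). KRT17, a keratin of activated keratinocytes, differed by -14.02, CAV1 by -12.62 and the simple epithelial keratin KRT7 by -12.55. IGFBP5, which binds insulin-like growth factors, differed by -11.96, the focal adhesion protein TES by -11.90 and the orphan receptor GPRC5A by -11.88 in the deposited tables. CAV1 is again measured in both lines, with deposited levels of -1.33, -1.22 and -1.38 in C-33A and 11.29, 11.41 and 11.13 in CaSki. In none of these genes did the levels of the lines overlap across tables, which their choice by a large difference made nearly certain.

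The labelled cell type was compared with markers listed for squamous epithelium, some of which (CDH1, EPCAM, KRT8 and KRT18) are shared with other epithelia. All 14 markers had a level of 1 or more in CaSki and 0 of 14 did in C-33A, with a median difference of -10.51 against 0.19 over all described genes. The p63 gene TP63 had deposited levels of -3.13, -3.28 and -3.24 in C-33A and 6.52, 6.53 and 6.59 in CaSki. CDH1, which encodes E-cadherin, had -2.99, -2.81 and -3.05 in C-33A and 7.84, 7.74 and 7.85 in CaSki. The keratin pair of simple epithelium came closest to the threshold in C-33A, with deposited levels for KRT8 of 0.71 in C-33A and 9.66 in CaSki and for KRT18 of 0.88 and 8.12. Of the 14 markers, 5 were within 0.5 of the lowest value in C-33A, and none of the others there was above the 0.88 of KRT18. Markers of other cell types were mostly low: 0 of 7 endothelial markers reached 1 in either line, 1 of 11 leukocyte markers did in C-33A (PTPRC, 2.45) and 0 in CaSki, and 0 of 9 markers of glandular cervical epithelium did in C-33A and 4 in CaSki, PAX8 among them (-3.22 in C-33A and 5.22 in CaSki). Of 8 fibroblast markers 3 reached 1 in C-33A (COL3A1, COL1A2 and THY1) and 2 in CaSki, and of the 5 described 3 were higher in C-33A and 2 lower.

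**Figure D2:**
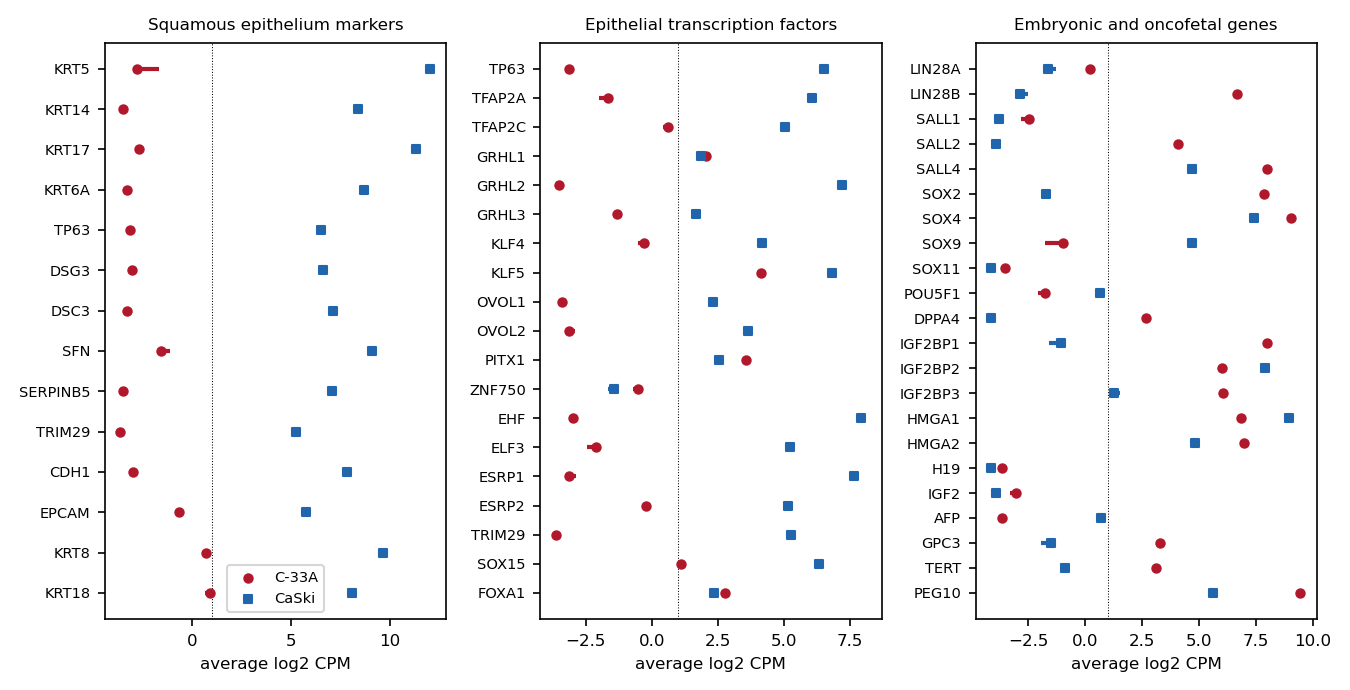
Deposited level (average log2 CPM) of genes in C-33A (red circles) and CaSki (blue squares) for 3 gene lists; points are the miR-218-5p tables, horizontal bars span the 3 tables of a line, and the dotted line marks a level of 1. All squamous markers lie left of the line in C-33A and right of it in CaSki.

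The lists that follow were put together from background knowledge. Counts of members higher or lower in C-33A by 1 or more are given over the described members, with the number listed, and are to be read beside the 23.5% and 21.2% over all described genes. Members described through their level in CaSki only could hardly be other than lower, and the reverse holds for C-33A, so the counts describe the lists and are no test. Of 8 described stratified epithelial keratins (15 listed) 7 were lower, and KRT10, a keratin of upper layers, was at 3.24 in C-33A and 3.29 in CaSki. Of 7 simple epithelial keratins 5 were described, all through their level in CaSki, and were lower. The 11 described desmosome genes (13 listed), of which 4 reached 1 in C-33A, were lower (median -7.22): the desmosomal cadherin DSC3 had a deposited level of -3.31 in C-33A and 7.12 in CaSki and the plakophilin PKP3 of -3.23 and 7.54. Some parts of the desmosome were nonetheless present in C-33A, with DSG2 at 4.35 and PKP2 at 3.06, against 7.98 and 6.24 in CaSki. Of 19 genes of the cornified envelope 6 were described, all through their level in CaSki, led by the kallikrein KLK5, at the lowest value in C-33A and 5.74 in CaSki.

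Of 11 described tight junction genes (14 listed) 8 were lower and 0 higher. CLDN1, a sealing claudin, had a deposited level of -3.52 in C-33A and 5.44 in CaSki, whereas CLDN12 was at 5.09 and 5.93. Of 15 described genes of adherens junctions and the epithelial surface (15 listed) 12 were lower and 0 higher. P-cadherin CDH3 had -1.85 in C-33A and 7.62 in CaSki. Beta-catenin CTNNB1, which links cadherins to the cell skeleton, was within 1 with a deposited level of 9.92 in C-33A and 8.93 in CaSki, as was alpha-catenin CTNNA1 at 8.60 and 8.20. The membrane serine protease inhibitors SPINT1 (-3.41 in C-33A and 6.35 in CaSki) and SPINT2 (-0.58 and 8.65) were both lower.

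Transcription factors of epithelial identity followed the same split. Of 19 described (20 listed), 16 were lower and 1 was higher, with a median of -5.73. EHF, an ETS factor of epithelia, had a deposited level of -2.99 in C-33A and 7.93 in CaSki. ESRP1, which sets epithelial splicing, had -3.13 in C-33A and 7.67 in CaSki. GRHL2, a grainyhead factor that maintains junction genes, had -3.52 in C-33A and 7.22 in CaSki, while its relative GRHL1 was at 2.08 and 1.85. PITX1 was the member that was higher (3.57 in C-33A and 2.56 in CaSki), and FOXA1 was within 1.

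Carcinoma cells that lack epithelial genes often express mesenchymal ones. Here the mesenchymal list was mixed, with 4 of 12 described genes (18 listed) higher and 8 lower. ZEB1, a repressor of CDH1, had a deposited level of 5.50 in C-33A and 1.70 in CaSki, and TWIST1 of 4.06 and 2.92. SNAI2, another repressor of CDH1, went the other way with -3.31 in C-33A and 6.23 in CaSki. N-cadherin CDH2 (-0.34 in C-33A and 6.47 in CaSki), fibronectin FN1 (3.41 and 9.75) and vimentin VIM (6.61 and 8.52) were lower in C-33A too. C-33A thus had low levels of both E-cadherin and N-cadherin mRNA.

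Extracellular matrix genes were mixed. Of 14 described collagens (15 listed) 5 were higher and 8 lower: COL5A2, a fibrillar collagen, had deposited levels of 10.41, 10.45 and 10.42 in C-33A and 1.13, 0.91 and 0.93 in CaSki, whereas COL5A1, also fibrillar, was at -1.49 in C-33A and 5.05 in CaSki. COL17A1, the collagen of hemidesmosomes, had 0.68 in C-33A and 9.75 in CaSki, and COL12A1 had -1.26 and 8.51. Of 13 laminins and matricellular genes (15 listed) 2 were higher and 10 lower. LAMA3 (-1.93 in C-33A and 7.63 in CaSki) and LAMB3 (-3.41 and 7.22), chains of a laminin of epithelial basement membranes, were lower, and LAMC1, a chain of many laminins, was at 7.04 and 8.50. Of 11 integrins (15 listed) 1 was higher and 8 were lower, with ITGB6 at the lowest value in C-33A and 6.36 in CaSki and the hemidesmosome subunit ITGB4 at 0.50 and 7.07. ITGB1, the common beta chain, was within 1 at 8.83 and 9.61. Hemidesmosome parts such as ITGB4 and COL17A1 were therefore lower in C-33A.

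Among 17 described growth factor receptors (20 listed) 3 were higher and 10 lower, or 9 without DDR1, which rests on the CaSki controls. EGFR had deposited levels of 2.11, 2.04 and 2.19 in C-33A and 9.93, 10.14 and 10.15 in CaSki. The receptor kinases MET (0.09 in C-33A and 8.74 in CaSki) and AXL (-0.45 and 9.64) were lower as well, and ERBB2 was within 1 at 5.62 and 5.99. ERBB4 was the exception in the EGFR family, with 7.98, 7.95 and 8.20 in C-33A and -2.50, -2.16 and -2.28 in CaSki. Of 15 described EGFR ligands and ERK targets (18 listed) 6 were higher and 8 lower. The ligands TGFA (-0.94 in C-33A and 5.56 in CaSki) and AREG (-1.56 and 4.68) were lower. Feedback inhibitors of the ERK pathway differed among themselves: SPRY1 was at 7.61 in C-33A and 0.36 in CaSki and SPRY4 at 4.29 and -1.06, but DUSP4 at -0.32 and 5.57.

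Developmental signalling lists were mixed. Of 22 genes of the TGF-beta and BMP pathway (22 listed) 9 were higher and 8 lower. ID2, a target of BMP signalling that inhibits differentiation factors, had deposited levels of 9.45, 9.55 and 9.48 in C-33A and 2.34, 2.52 and 2.20 in CaSki. ID4 was at 8.94 in C-33A and 2.86 in CaSki, and the ligand BMP7 at 3.10 and -3.79. Other BMP genes did not follow: BMP2 was at -3.14 in C-33A and 3.52 in CaSki, BMP4 at 2.36 and 3.73, and ID1 within 1 at 9.10 and 8.93. On the TGF-beta side the receptor TGFBR2 was at 1.06 in C-33A and 6.45 in CaSki. Of 16 Hippo pathway genes (16 listed) 3 were higher and 6 lower. The YAP targets CCN2 (7.71 in C-33A and 2.41 in CaSki) and ANKRD1 (6.83 and 1.61) were higher. Other targets were not: CCN1 was within 1 at 5.55 in C-33A and 6.31 in CaSki, and AMOTL2 was lower at 6.86 and 8.11. YAP1 itself was lower at 7.59 in C-33A and 9.30 in CaSki. Of 13 Notch genes (16 listed) 3 were higher and 7 lower, with the target HEY1 at 5.27 in C-33A and -0.90 in CaSki and the ligand JAG2 at 0.35 and 6.86. Of 19 WNT genes (23 listed) 4 were higher and 10 lower, with AXIN2, a feedback target, at 2.35 in C-33A and -0.47 in CaSki and the ligand WNT7A at -3.42 and 4.61. HOX genes, whose set records position along the body, were higher in 8 and lower in 11 of 27 (32 listed). HOXB13 had a deposited level of 2.81 in C-33A and the lowest value in CaSki, and HOXA9 the lowest value in C-33A and 4.78 in CaSki.

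Embryonic and oncofetal genes lay towards C-33A, where 12 of 15 described genes (22 listed) were higher and 3 lower (median 3.98). SOX2, a pluripotency and neural factor, had deposited levels of 7.86, 7.93 and 7.96 in C-33A and -1.72, -1.84 and -1.88 in CaSki. LIN28B had 6.65, 6.63 and 6.90 in C-33A and -2.87, -2.61 and -2.52 in CaSki. The RNA-binding protein IGF2BP1, which stabilizes oncofetal mRNAs, had 7.99, 7.90 and 7.92 in C-33A and -1.04, -1.58 and -1.24 in CaSki. TERT, the catalytic subunit of telomerase, was at 3.10 in C-33A and -0.88 in CaSki. SOX9 (-0.95 in C-33A and 4.71 in CaSki), IGF2BP2 (5.99 and 7.90) and HMGA1 (6.84 and 8.94) were the lower members. Neuronal genes showed no such lean, with 6 of 14 described (25 listed) higher and 5 lower. MAP2 was at 6.89 in C-33A and 1.38 in CaSki and neurofilament NEFL at -3.41 and 5.31.

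Of 22 cancer-testis antigens 9 were described, 7 of them higher in C-33A and 1 lower. MAGEA10 (6.34 in C-33A), MAGEA1 (3.13), MAGEA12 (1.28) and GAGE1 (1.38) were at the lowest deposited value in CaSki. MAGEA6 had a deposited level of 6.71 in C-33A and -3.91 in CaSki. MAGEA3 and MAGEA6 are near-identical copies, as are others of the family, so reads may be split between them and their single levels are uncertain. CTCFL, a germ line paralog of CTCF, was found in CaSki alone at 4.27, and TEX15 was within 1.

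Genes of innate defence and inflammation were mostly lower in C-33A. Of 10 described sensors of DNA and RNA and their adaptors (14 listed) 7 were lower. The cytosolic DNA sensor CGAS had deposited levels of -2.17, -2.79 and -2.77 in C-33A and 5.90, 5.88 and 5.89 in CaSki, and its adaptor STING1 had -2.69 and 3.02. The DNA sensor IFI16 was at the lowest value in C-33A and at 6.65 in CaSki. The kinase TBK1 (6.12 in C-33A and 5.69 in CaSki), IRF3 (5.92 and 5.31) and the RNA sensing adaptor MAVS (5.75 and 6.34), which act downstream, were within 1. Among 18 described NF-kB and inflammatory genes (22 listed) 14 were lower and 0 higher. The subunits NFKB1 (5.56 in C-33A and 5.89 in CaSki) and RELA (4.34 and 4.82) were within 1. The cytokine genes CXCL8 (5.04 in CaSki), IL6 (3.64) and CXCL1 (3.35) were at the lowest deposited value in C-33A. Of 17 interferon response genes (26 listed) 2 were higher and 11 lower, with ISG15 at 6.64 in C-33A and 4.73 in CaSki and BST2, which tethers viruses, at -2.77 and 6.72.

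Antigen presentation by class I was lower for 12 of 15 described genes (16 listed), but 5 of these (HLA-E, TAP1, TAP2, TAPBP and PSMB8) rest on the CaSki controls. Without them 7 of 10 were lower, with a median of -2.34. HLA genes vary in sequence between people and resemble each other, so their counts depend on how well reads of each line match the reference, which was not tested. B2M, the shared light chain, was within 1 at 7.28 in C-33A and 7.95 in CaSki, and NLRC5, an activator of class I genes, was at -0.25 and 3.04.

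**Figure D3:**
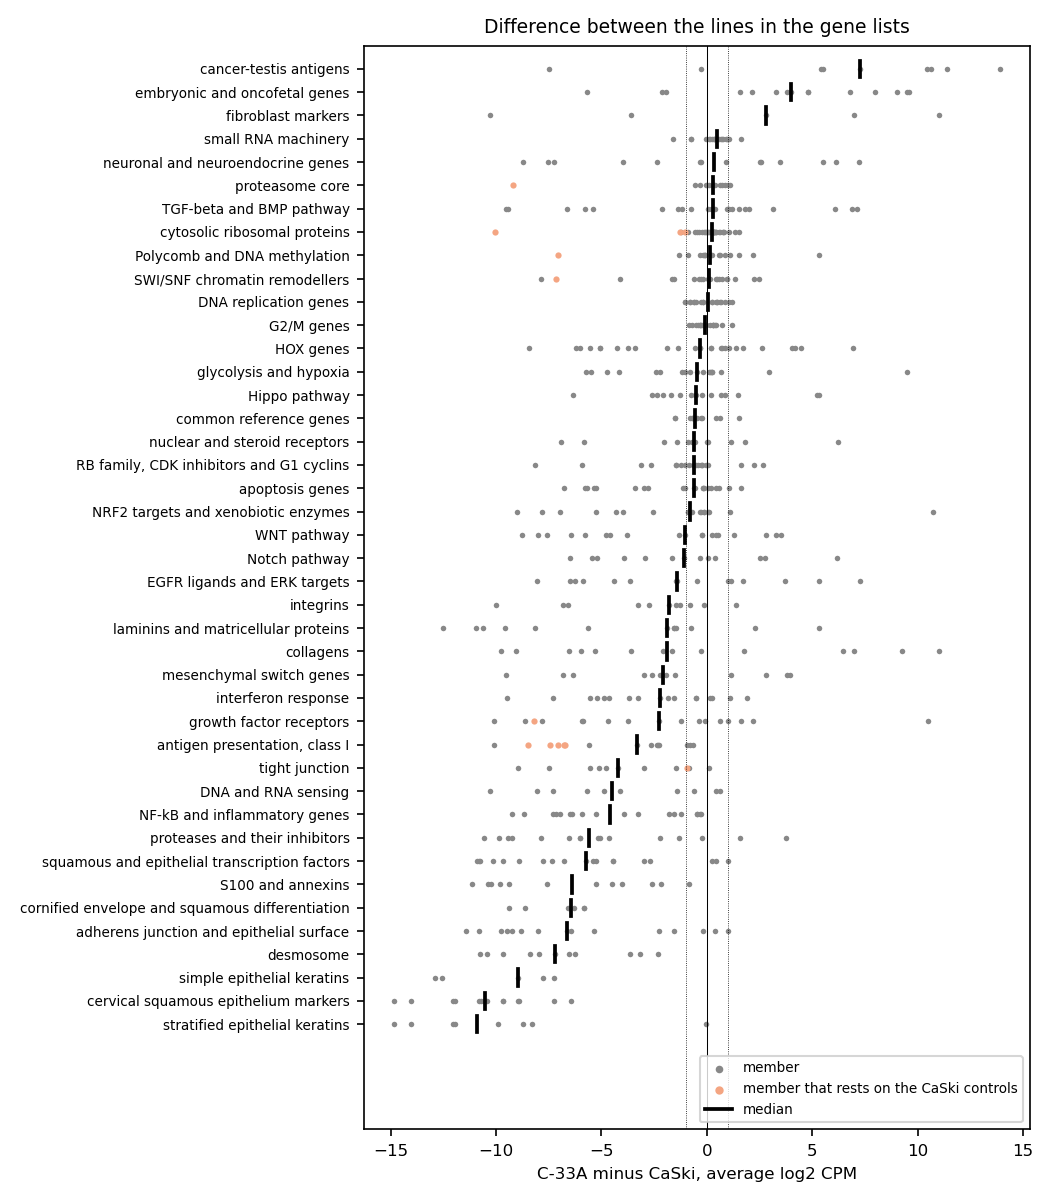
Each row is a gene list with 5 or more described members; points are members placed by the difference in level (C-33A minus CaSki, average log2 CPM), black bars are medians, orange points rest on the CaSki controls, and dotted lines mark a difference of 1. Cancer-testis antigens have the highest median (7.26) and stratified epithelial keratins the lowest (-10.93), and G2/M genes cluster near 0.

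Secreted and calcium-binding proteins of epithelia were mostly lower as well. Of 12 described S100 and annexin genes (14 listed) 11 were lower, with S100A2 at 0.20 in C-33A and 10.46 in CaSki and S100A11 at the lowest value in C-33A and at 7.51 in CaSki. Among 16 described proteases and inhibitors (19 listed) 2 were higher and 13 lower: the urokinase PLAU was at -0.92 in C-33A and 6.96 in CaSki, and MMP10 at 2.25 and -1.50. In the list of NRF2 targets and xenobiotic enzymes 2 of 18 (24 listed) were higher and 7 lower. NRF2 itself (NFE2L2, 6.40 in C-33A and 6.55 in CaSki) and its repressor KEAP1 (6.43 and 6.31) were within 1, whereas the target NQO1 had deposited levels of -0.40, -0.25 and -0.56 in C-33A and 8.59, 8.59 and 8.64 in CaSki. ALDH1A1, a retinal dehydrogenase used as a stem cell marker, had 6.60 in C-33A and the lowest value in CaSki. Of 19 genes of glycolysis and hypoxia (20 listed) 2 were higher and 8 lower, with the glucose transporter SLC2A3 at 6.38 in C-33A and -3.09 in CaSki and CA9, a target of hypoxia signalling, at -2.31 and 3.40.

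The division machinery was alike by contrast. Of 20 G2/M genes (20 listed) 19 were within 1, 1 was higher (PLK1, 5.86 in C-33A and 4.67 in CaSki) and 0 were lower, with a median of -0.08. CCNB1, the mitotic cyclin, had deposited levels of 8.63, 8.69 and 8.67 in C-33A and 8.18, 8.20 and 8.15 in CaSki. Of 20 DNA replication genes (20 listed) 16 were within 1, 2 higher and 2 lower. Of 20 described genes of the RB family, CDK inhibitors and G1 cyclins (21 listed) 9 were within 1, 3 higher and 8 lower. The RB gene RB1 was at 5.56 in C-33A and 5.96 in CaSki, and CDKN2A, whose product p16 is a marker of RB loss, was high in both at 7.01 and 7.29. CDKN1A, the CDK inhibitor p21, had deposited levels of 0.19, 0.13 and -0.28 in C-33A and 6.10, 6.17 and 6.24 in CaSki. CDK6, a kinase that phosphorylates RB, had 1.19, 1.28 and 1.02 in C-33A and 9.36, 9.54 and 9.13 in CaSki, while CDK4 was within 1 at 7.08 and 7.30. Of 21 apoptosis genes (21 listed) 2 were higher and 10 lower, with the death receptor FAS (-0.72 in C-33A and 5.05 in CaSki) and its caspase CASP8 (-0.23 and 5.12) among the lower genes.

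Chromatin regulators were mostly within 1 with single large exceptions. Of 21 described SWI/SNF genes (22 listed) 13 were within 1, 3 were higher and 5 lower, or 4 without SMARCB1, which rests on the CaSki controls. The ATPase SMARCA2 had deposited levels of -2.38, -2.11 and -1.81 in C-33A and 5.49, 5.54 and 5.45 in CaSki, and its paralog SMARCA4 was at 6.01 and 5.45. Of 18 Polycomb and DNA methylation genes (20 listed) 12 were within 1, 4 were higher and 2 lower, or 1 lower without RING1, which rests on the CaSki controls. TET1, which oxidizes methylcytosine, had 4.78, 4.81 and 4.94 in C-33A and -0.56, -0.39 and -0.44 in CaSki, and the methyltransferase DNMT1 was at 7.15 and 7.49. Of 13 nuclear receptors (16 listed) 3 were higher and 4 lower, among them NR2F1, at 8.02 in C-33A and 1.81 in CaSki, and the glucocorticoid receptor NR3C1, at 1.29 and 7.12.

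Housekeeping lists, which most cells express, bear on the scaling between the lines. Of 37 ribosomal protein genes (37 listed) 30 were within 1, 3 were higher and 4 lower, and 3 of the lower ones (RPS9, RPS27 and RPS28) rest on the CaSki controls, with a median of 0.27. Of 13 proteasome core genes (14 listed) 10 were within 1. Of 12 common reference genes 9 were within 1, 1 was higher and 2 lower, with a median of -0.56, opposite in sign to that of the ribosomal genes. GAPDH was at 9.58 in C-33A and 10.37 in CaSki and YWHAZ at 9.25 and 10.76. RN7SL1, the RNA of the signal recognition particle, took 14.6% of the average counts in C-33A and 15.9% in CaSki. How strict the labelled polyA selection was, with this RNA at such a share, was not tested. The machinery that the transfected mimics depend on was present in both lines: 16 of 19 described genes (20 listed) were within 1, AGO1 (7.64 in C-33A and 6.03 in CaSki) and TNRC6B (7.11 and 6.06) were higher and DICER1 (6.64 and 8.22) was lower. Host genes of the transfected microRNAs were higher in 2 and lower in 1 of 3 described (7 listed). The lower member was AOPEP (3.75 in C-33A and 5.47 in CaSki). SLIT2, whose introns hold a miR-218 gene, had deposited levels of 9.22, 9.26 and 9.28 in C-33A and 5.21, 5.35 and 5.30 in CaSki. Its receptor ROBO1 was at 4.44 in C-33A and -3.90 in CaSki.

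Differences were next laid out along the chromosomes, over 13449 genes with a RefSeq position (GRCh38.p14) that do not rest on the controls, whose median was 0.17. Chromosome 4 had the highest median (0.80), with 43.6% of 488 genes higher and 15.0% lower, followed by chromosome 18 (0.71, with 43.0% of 207 genes higher). Chromosomes 21 (0.51), 15 (0.44) and 12 (0.44) were above the overall median too. Chromosome 14 had the lowest median (-0.43), with 11.9% of 452 genes higher and 30.8% lower, followed by chromosome 8 (-0.17) and 20 (-0.14). Genes of a chromosome are not replicates, and copy number was not measured here.

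**Figure D4:**
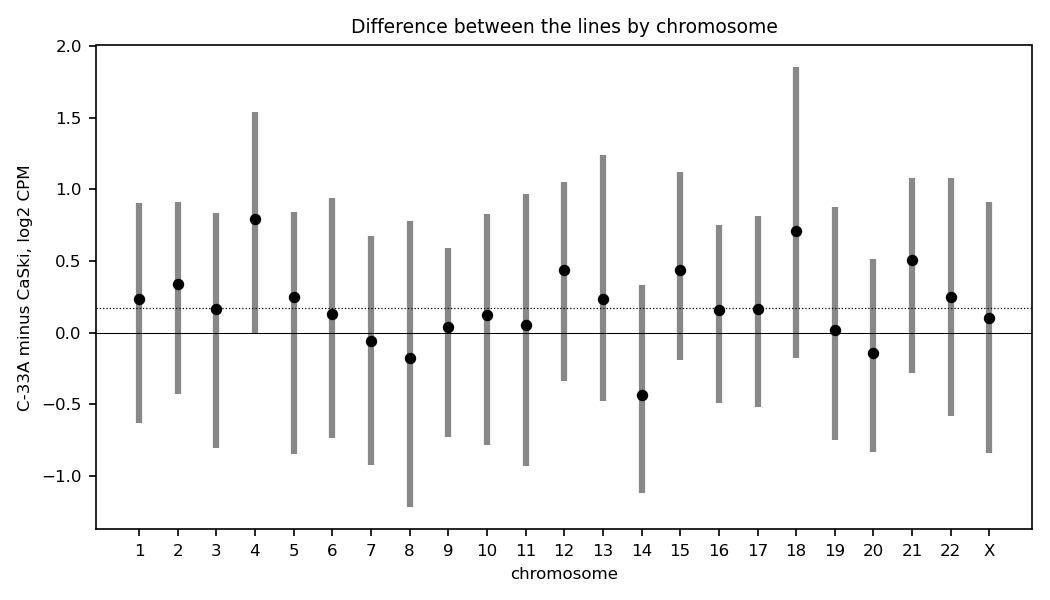
Median (points) and quartiles (bars) of the difference C-33A minus CaSki in average log2 CPM for the described genes of each chromosome, with the overall median as a dotted line. Chromosomes 4 and 18 lie highest and chromosome 14 lowest.

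In windows of 10 Mb with 20 or more genes, 184 of 254 windows had a median within 0.5 of the overall one. The highest was on chromosome 18 between 40 and 50 Mb (1.83, with 15 of 24 genes higher) and the lowest on chromosome 3 between 190 and 200 Mb (-1.37, with 27 of 42 genes lower). On chromosome 5 the windows from 0 to 10 Mb (-1.06) and from 30 to 40 Mb (-1.12) were low, as was that of chromosome 14 between 80 and 90 Mb (-1.09). Medians of 1 or more were found in 16 windows and of -1 or less in 5.

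Many zinc finger (ZNF) genes lie on chromosome 19. Between 20 and 30 Mb (median 1.61, and 0.04 over the 15 genes at 1 or more in both lines) 13 of 22 genes were higher in C-33A, and of the 13 ZNF genes there 10 were higher and 7 were found in C-33A alone. At the end of the chromosome, between 50 and 60 Mb, 78 of 155 genes were higher in C-33A and 21 were found in C-33A alone. Of the 94 ZNF genes in that window, 60 were higher and 17 were found in C-33A alone. ZNF551 had deposited levels of 5.81, 5.77 and 5.74 in C-33A and -4.01, -3.75 and -3.83 in CaSki, and ZNF134 of 5.72, 5.70 and 5.75 in C-33A and -3.64, -4.00 and -3.74 in CaSki. ZNF667 was at 5.63 in C-33A and the lowest value in CaSki. These lie at chr19:57681977-57690648, chr19:57614242-57624724 and chr19:56439329-56478093 and were chosen after their values were seen, as the highest of those found in C-33A alone on this chromosome. The windows count every gene whose symbol begins with ZNF, whereas the counts by whole chromosome that follow use a narrower set, so they do not add up. Over the whole of chromosome 19, 90 of the 195 described ZNF genes of that set (46.2%) were higher and 15 lower. Of these 195 genes, 25 were found in C-33A alone and 2 in CaSki alone. On the other chromosomes 83 of 226 (36.7%) were higher, 21 were lower and 2 were found in each line alone. Many zinc finger genes resemble each other, so reads may be split between copies.

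Promoter windows of RefSeq like the 4 printed above were available for 178 of 228 protein coding genes found in C-33A alone and 205 of 278 found in CaSki alone without those resting on the controls. The median number of CpG in the 300 bases was 20 in genes found in C-33A alone, 12 in genes found in CaSki alone and 27 in the 5811 genes with levels within 1. Fewer than 10 CpG were found in 21.3%, 44.4% and 6.66% of these promoters. Genes found in a single line thus had fewer CpG than genes with like levels, and those of CaSki the fewest. KRT5, with 7 CpG, lies in the low range, and LIN28B, with 37, is above the median of all 3 sets. The other 2 printed promoters go against such a split. MAGEA4, with 10, is below the median of genes found in C-33A alone, and CAV1, with 19, is above that of genes found in CaSki alone.

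**Figure D5:**
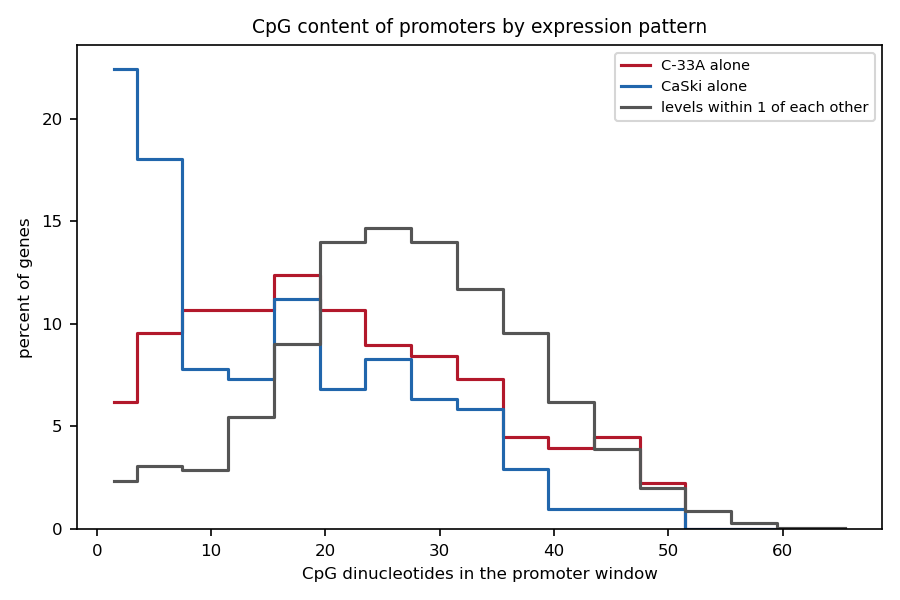
Share of promoters (vertical axis, percent of genes) by the number of CpG dinucleotides in the 300 bases around the start (horizontal axis), for genes found in C-33A alone, genes found in CaSki alone and genes within 1. The curve of CaSki peaks at the lowest counts, and that of genes within 1 between 20 and 30.

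Motifs were counted on both strands of the same windows. The AP-1 motif TGANTCA was in 2.25% of promoters of genes found in C-33A alone, in 14.1% of those found in CaSki alone, in 4.32% of all described protein coding genes and in 7.76% of all 27305 promoters of the table. The ETS motif CCGGAAG was in 15.7%, 5.37%, 19.5% and 10.7% of the same sets. The E-box CACCTG, bound by ZEB1 and SNAI2, was in 16.3%, 24.9%, 18.0% and 20.6%, once in KRT5 and once in MAGEA4. The AP-2 motif GCCNNNGGC was in 25.8%, 22.9%, 32.7% and 23%. The grainyhead motif AACCGGTT was in 0% and 0% of the promoters of genes found in a single line and in 0.143% of all described protein coding genes. A match is a description of the letters and not a bound site, and the ETS and grainyhead motifs contain a CpG themselves.

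Finally the levels were set beside the genes that the authors' deposited tables call for each mimic at an FDR (adjusted p-value) under 0.05, to see how many were low in the other line. In C-33A with miR-218-5p 46 of 61217 genes were called (0.0751%), and 5 of these (10.9%) had a level under 1 in CaSki: ABCD2, CADM2, DCDC2, GASK1B and GTSF1. Of all genes at 1 or more in that C-33A table, 14.1% were under 1 in CaSki. In C-33A with miR-23b-3p 2 of 29 called genes (0.0474% of the listed) were under 1 in CaSki, and with miR-124-3p 8 of 99 (0.162%). These are 6.9% and 8.08%, against 13.8% and 14.4% of all genes at 1 or more. The immediate early genes EGR1 and NR4A3 were among the 8. In CaSki with miR-218-5p 15 genes were called (0.0245%), of which CAV2 and GALNT3 (13.3%) were under 1 in C-33A. CAV2, the partner of CAV1 in caveolae, had a deposited log2 fold change of -0.69 in CaSki, with levels of -2.96 in C-33A and 8.62 in CaSki. In CaSki with miR-124-3p 17 of 187 called genes (0.305% of the listed) were under 1 in C-33A. This is 9.09%, against 15.4% of all genes at 1 or more in that table. With the mimic 9 of them rose, among them MET, ITGB4 and the keratin KRT80, and 8 fell, among them the keratin KRT13. In CaSki with miR-23b-3p 1472 genes were called (2.40%), and 146 of the 863 rises and 72 of the 609 falls were under 1 in C-33A. Together these are 14.8% of the called genes, against 15.5% of all genes at 1 or more in that table. In no comparison was the share of called genes under 1 in the other line above that of all genes at 1 or more. The sets differ, since called genes were not required to reach 1 in their own line: KRT13 was at 0.28 in CaSki and PRR36 at -0.0043 in C-33A with miR-124-3p.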

How the data were processed

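RNA was sequenced from 2 cell lines after oligo(dT) enrichment, per the labels' protocols. The tools were STAR 2.7.10b, FastQC 0.73, edgeR 3.36.0 and featureCounts 2.0.3 and the build GRCh38 (hg38), per the submitters' processing notes. Whether reads were counted by strand is unknown, so a gene and its antisense partner cannot be told apart. Per the file headers, the deposited columns are the average log2 CPM, the log2 fold change with its p-value and FDR, and the F score, for 61217 genes. The averages are those the authors deposited, over the control and mimic libraries of a line.

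From these the difference of the average log2 CPM was computed with Python 3.11.15 and pandas 2.3.3, and no test was run. The counting step was tested on simulated data. Symbols of 39617 listed genes matched RefSeq, 13649 of them described. The 14899 genes, the 48 gene lists (2 symbols were not found) and the rules were chosen with earlier results of these data known. Named genes were the 8 protein coding genes with the highest level found in each line alone, the 8 with the largest difference each way not within 0.5 of a lowest value, per list up to 6 with the largest difference and up to 3 with the highest level, and defining markers. List members named outside this rule serve as contrasts and were chosen after their values were seen. Genes of the Y chromosome and XIST were left out of the named genes. Alternatives changed the tables, the pseudocount, the level threshold, the centring and the gene type. Some genes and 1 gene list are not reported here.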

Additional observations from a re-analysis of the deposited data

How the results depend on the processing

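The counts of genes higher and lower in C-33A stayed within 1.5 times of the values given under all settings run, from 2530 (protein coding genes) to 4430 (level of 0 or more) higher and from 2596 (level of 2 or more) to 3833 (level of 0 or more) lower. A further pseudocount of 1 CPM compresses low levels by construction: with it 1447 genes were found in C-33A alone and 1786 in CaSki alone, and 11 windows of 10 Mb, in place of 21, had a median past 1 in either direction. With a level of 0 or more, 568 genes were found in C-33A alone, and among protein coding genes 228 were. Called genes of the mimics under 1 in the other line numbered 252 in all and 139 among protein coding genes. The 75 named genes and list medians gave 748 values under 10 settings, of which 419 moved by less than the SD over the 3 table pairs and 329 by more. Changes of sign were counted only where the value given was 1 or more in size, and there 0 were found. Smaller list medians did change sign, such as that of the G2/M genes, which was -0.08 and became 0.01 from the miR-124-3p tables. The control level in place of the average, from the deposited fold change, gave 3735 higher and 3370 lower. No paired analysis was possible because the deposited tables hold averages and no values per library; for the same reason leaving out each replicate was not run. Without values per library the spread between cultures, the depth and the counting error of low genes are unknown.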

Other observations

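The groups below were chosen after their values were seen. Most replication-dependent histone genes of chromosome 6 had like levels, with 31 of 45 described genes within 1 (median difference 0.11), and 9 were lower and 5 higher in C-33A by 1 or more. The 9 were H3C8, H2BC12 (deposited level -2.35 in C-33A and 9.27 in CaSki), H2AC12 (-2.49 and 8.86), H2BC10 (-2.84 and 8.41), H4C13 (-3.06 and 7.02), H2AC14 (1.02 and 8.70), H3C3 (-1.55 and 6.88), H2BC14 (-0.30 and 4.62) and H1-1 (-1.74 and 2.94). The 5 were H4C4 (8.57 in C-33A and -1.78 in CaSki), H3C12 (3.54 and -0.76), H1-3 (9.61 and 6.19), H3C11 (5.28 and 3.70) and H2BC17 (9.20 and 8.06). H2BC10 and H3C8 are neighbours at chr6:26272931-26273412 and chr6:26270918-26271413, and H2BC12 and H2AC12 at chr6:27138293-27146858 and chr6:27147106-27147562. Histone genes of a type are near-identical in coding sequence and mostly lack a polyA tail, and how reads were divided among copies was not tested. The 9 and the 5 genes were past 1 on the same side in all 3 pairs of tables. H2AC17 differed by 0.91 here but by 1.04 in the miR-23b-3p tables, so the number within 1 depends on the tables used.

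All 13 mitochondrially encoded mRNAs were higher in C-33A, by 1.24 to 2.58 (median 1.81). MT-CO1, a subunit of cytochrome oxidase, had deposited levels of 12.34, 12.25 and 12.36 in C-33A and 10.55, 10.62 and 10.62 in CaSki. The median was 1.45 from the miR-23b-3p tables, 1.51 from the miR-124-3p tables and 1.84 from the control level. MT-ND2 differed by only 0.79 in the miR-23b-3p tables and 0.80 in the miR-124-3p tables. Levels of these genes in C-33A could move between tables, as MT-ATP6 did with 8.01, 7.60 and 7.24. On chromosome 15, SNRPN, an imprinted gene, had a deposited level of 6.20 in C-33A and the lowest value in CaSki.

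SNHG14, the long non-coding RNA that extends from SNRPN, had a deposited level of 7.43 in C-33A and 2.24 in CaSki.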
